A study of Mus musculus with 21 samples.

Results

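TMEM38A knockdown (KD) myotubes were compared directly with WFS1 KD myotubes. The members are the 6 arrays whose labels name a day 6 culture with TMEM38A shRNA (3 arrays) or WFS1 shRNA (3 arrays), of 21 arrays in the series, and no control array enters the difference. All 6 cultures were C2C12 cells, a mouse myoblast line, transduced with a lentivirus carrying 1 shRNA, selected with puromycin as a stable line, differentiated by serum withdrawal and taken at day 6 as myotubes (MTs). Contraction was blocked with tetrodotoxin in the second part of differentiation, and MTs were separated from mononuclear myoblasts (MBs) by partial trypsinisation and slow centrifugation. Levels in 3 control shRNA MT cultures made the same way are set beside both lines as a description, and 6 untransduced cultures (3 of MTs at day 6 and 3 of MBs at day 0) supply the change in myogenesis. Because each line carries a single shRNA, loss of its target cannot be told apart from other effects of that shRNA or of that line. The replicates are numbered cultures. The statistical fit shared 1 estimate of the spread over all 21 arrays, so p-values measure the spread between cultures within all 7 groups. They do not rest on the 6 cultures alone.

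Both targets encode multi-spanning membrane proteins that the study follows in the nuclear envelope of muscle, and that are known from the endoplasmic or sarcoplasmic reticulum in other work. TMEM38A, also called TRIC-A, forms a trimeric potassium-permeable channel of the sarcoplasmic reticulum that carries counter-current while calcium leaves through the ryanodine receptor, and it is most abundant in excitable tissue. WFS1 encodes wolframin, an endoplasmic reticulum glycoprotein mutated in Wolfram syndrome, in which diabetes and optic atrophy occur together, and known in pancreatic beta cells for restraining the unfolded protein response and for its part in reticulum calcium. In the study both belong to a set of muscle nuclear envelope transmembrane proteins tested for positioning genes at the nuclear periphery.

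Values are the deposited log2 signals of Illumina bead arrays. Each gene is represented by its brightest probe, and a log2 ratio is TMEM38A minus WFS1, so a negative one means a lower signal in TMEM38A KD MTs. A gene was called where the limma test gave a Benjamini-Hochberg adjusted p below 0.05 and the ratio exceeded 0.5 in size. On a bead array, levels of different genes cannot be ranked against each other. In bulk RNA, fewer cells of a type and less RNA per cell cannot be told apart.

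The targeted genes matched the labels. Tmem38a had log2 signals of 6.92, 6.94 and 6.86 in TMEM38A KD MTs and 10.72, 10.88 and 10.74 in WFS1 KD MTs, and control MTs lay at 10.73, 10.69 and 10.88. The 3 TMEM38A cultures were the low ones, 14.7-fold below the WFS1 cultures (log2 ratio -3.88, SE 0.098, adjusted p 3.04e-14), and stood near the level of untransduced MBs. Wfs1 had log2 signals of 9.47, 9.75 and 9.75 in TMEM38A KD MTs and 6.82, 6.83 and 6.79 in WFS1 KD MTs, with control MTs at 10.23, 10.35 and 10.48. Here the 3 WFS1 cultures were the lowest, 7.19-fold below the TMEM38A cultures (log2 ratio 2.85, SE 0.17, adjusted p 1.89e-09). Each line thus expressed the other's target, though Wfs1 lay below the control level in the TMEM38A cultures too. The other nuclear envelope genes targeted in the series were not called. Plpp7, which encodes NET39, averaged 8.67 ± 0.039 in TMEM38A KD MTs and 8.37 ± 0.0084 in WFS1 KD MTs (SD, n = 3 each, adjusted p 0.0533), and Tmem214 averaged 8.15 ± 0.016 in TMEM38A KD MTs and 8.30 ± 0.034 in WFS1 KD MTs (SD, n = 3 each, adjusted p 0.201).

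**Figure D1:**
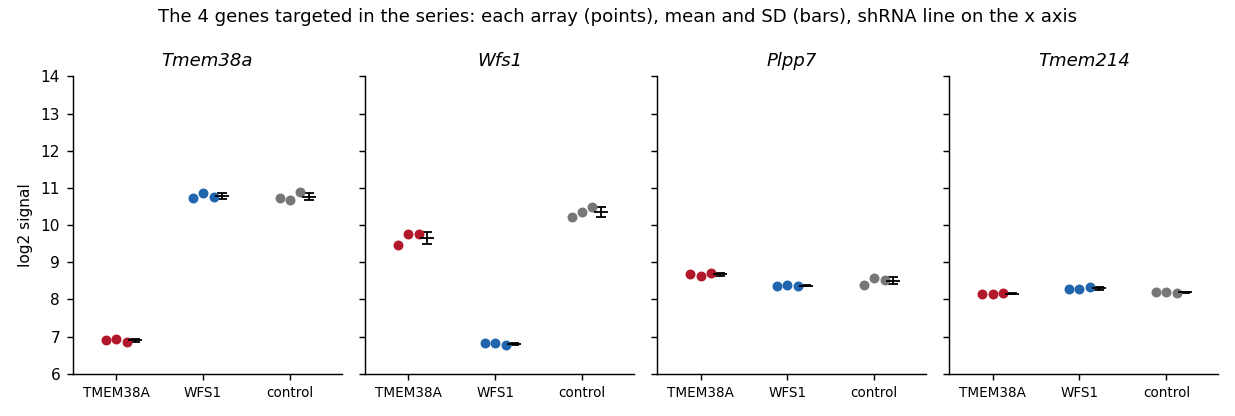
Log2 signal (y axis) of the 4 genes targeted in the series in each array of TMEM38A KD, WFS1 KD and control shRNA MTs (x axis), as points, with the mean and SD of 3 arrays as bars. Tmem38a is low only in its own line among these 3. Wfs1 is lowest in its own line, and in the TMEM38A line it lies below control MTs. Plpp7 and Tmem214 differ by at most 0.30 on the log2 scale between the KD lines.

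The arrays were of similar brightness. Mean scanner intensity was 331 to 364 in the TMEM38A line and 301 to 400 in the WFS1 line. Between 2 cultures of a line, 0 to 2 genes lay over 1 log2 unit apart, against 276 to 314 genes between a TMEM38A and a WFS1 culture. MT structural genes were expressed in both lines. Acta1, skeletal actin, read 13.72, 13.82 and 13.85 in TMEM38A KD MTs and 13.73, 14.05 and 14.05 in WFS1 KD MTs. Tnnt3, fast troponin T, read 13.14, 13.13 and 13.13 in TMEM38A KD MTs and 13.07, 13.15 and 12.96 in WFS1 KD MTs. Neither was called. Among other muscle markers, the creatine kinase gene Ckm was called higher and the myogenin gene Myog lower in TMEM38A KD MTs, as given below.

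Of 13817 genes tested, 1236 were called (8.95%), of which 528 were higher (3.82%) and 708 lower (5.12%) in TMEM38A KD MTs. By over 1 log2 unit 278 genes were called (2.01%), 76 higher (0.55%) and 202 lower (1.46%), so the lower side reached further. The signals of the 3 TMEM38A and the 3 WFS1 cultures did not overlap for any of the 1236 called genes, nor for 47.2% of all genes tested, and 760 of the called genes differed by over 0.5 in every pair of cultures. The median log2 ratio over all genes was 0.02, with a median SE of 0.077. Re-processing of the scanner intensities with a small offset (normexp, offset 16) gave 2499 calls, 1193 higher and 1306 lower. Median scaling in place of quantile normalisation gave 1094 calls, 897 of them among the 1236, and ended the calls of Tmem109, Pdia3, Os9, Edem2, Snai2, Cyc1, Ndufa9, Cycs, Tsc1, Mcm6, Kif23, Sdc4, S100a4, Chrnd and Ldha, which are given with their quantile-normalised values. Averaging all probes of a gene gave 906 calls, 878 of them among the 1236, and ended those of Vcam1, Bdnf, Letm1, Stim2, Edem2, Tead4, Myog, Snai1, Tsc1, Kif23, Bbc3, Ccnd1, Dcn, Mylk2, Cycs, Col4a5, Actb and Vldlr.

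The 15 largest falls in TMEM38A KD MTs were Cxcl1, Tmem38a, Myh4, Saa3, Col3a1, Igfbp7, Bgn, Myl3, Mgp, Mmp2, Vgll2, Lbh, Cav1, Ndrg1 and Timp3. They hold a chemokine, an acute phase protein, a fast myosin, a slow myosin light chain and a run of secreted matrix proteins. The 15 largest rises were Wfs1, Igfn1, Cgnl1, Sobp, Gpx3, Myl2, Gcnt1, Phldb2, Chrne, Slc6a9, Nmrk2, Car3, Syngr1, Gas6 and Myh7, among them both slow myosin genes Myl2 and Myh7 and the adult acetylcholine receptor subunit gene Chrne.

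**Figure D2:**
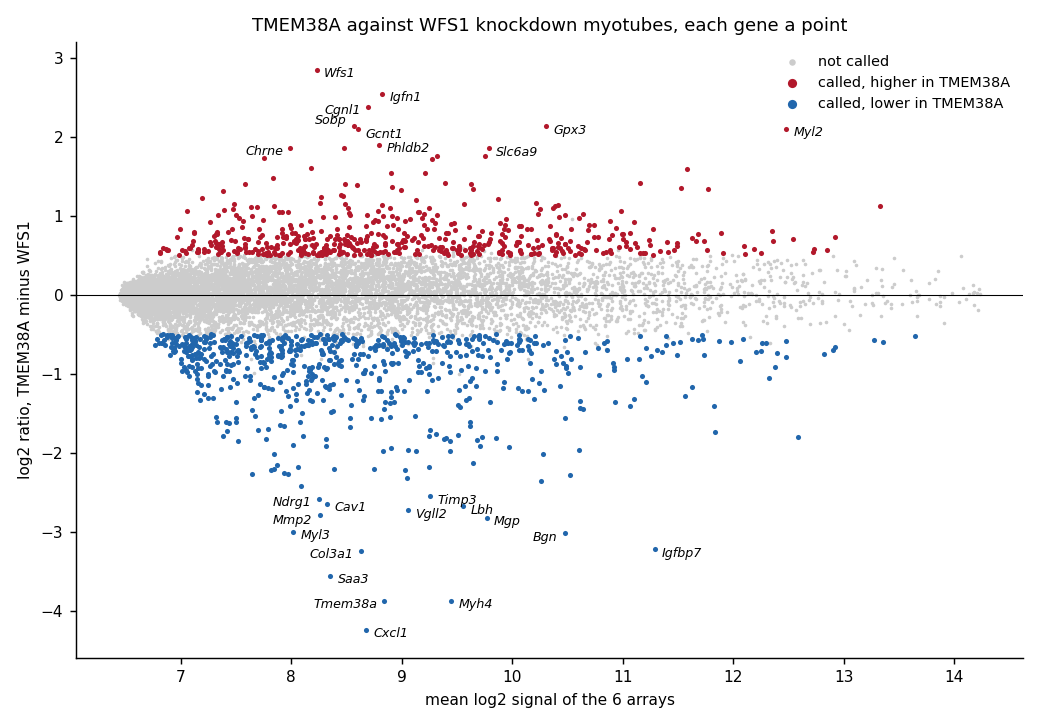
Log2 ratio of TMEM38A to WFS1 KD MTs (y axis) against the mean log2 signal of the 6 arrays (x axis) for the 13817 genes tested, with 528 genes called higher in red and 708 called lower in blue. The lower side extends to -4.24 (Cxcl1) and the higher side to 2.85 (Wfs1).

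Genes of the extracellular matrix were lower across several lists. Fibrillar collagens give connective tissue its tensile strength and network collagens build the basement membrane around each muscle fibre. Of 18 collagen genes tested (21 listed), 11 were lower in TMEM38A KD MTs (61.1%) and 1 was higher, with a median log2 ratio of -0.75. That median was -1.44 at normexp offset 16, -1.14 at offset 50 and -1.19 with signal required in all 6 arrays. Over the alternative settings it ran from -1.44 to -0.56. Col3a1, the type III fibrillar collagen, had log2 signals of 7.15, 6.88 and 7.00 in TMEM38A KD MTs and 10.52, 9.81 and 10.41 in WFS1 KD MTs, the largest difference of the list (9.43-fold lower; log2 ratio -3.24, SE 0.40, adjusted p 1.28e-05). The TMEM38A cultures lay below and the WFS1 cultures above the control MTs, which read 8.54, 8.53 and 8.05. Col8a1, a short-chain network collagen, read 6.89, 6.90 and 6.86 in TMEM38A KD MTs and 9.40, 9.30 and 9.19 in WFS1 KD MTs (log2 ratio -2.41, SE 0.14, adjusted p 1.21e-09). Col6a1, a chain of the microfibrillar collagen VI, read 6.63, 6.82 and 6.68 in TMEM38A KD MTs and 9.11, 8.89 and 8.79 in WFS1 KD MTs (log2 ratio -2.22, SE 0.27, adjusted p 8.89e-06). For both, the control cultures, at 8.95, 8.67 and 8.67 and at 8.65, 8.15 and 8.45, lay nearer to the WFS1 line. The basement membrane chains Col4a2 and Col4a1 differed by -1.70 and -1.17 (adjusted p 8.82e-06 and 3.03e-08), while Col4a5 was the member called higher (log2 ratio 0.53, SE 0.071, adjusted p 3.03e-05). The Col4a5 call was lost without WFS1 replicate 2 (0.48) and without WFS1 replicate 3 (0.49).

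Matrix glycoproteins and proteoglycans followed, with 12 of 31 genes tested lower (38.7%), 1 higher and a median of -0.44 (-0.79 at normexp offset 16 and -0.27 with probes averaged). Bgn, the small leucine-rich proteoglycan biglycan, had log2 signals of 9.03, 8.94 and 8.93 in TMEM38A KD MTs and 12.06, 12.00 and 11.91 in WFS1 KD MTs, and control MTs, at 11.91, 11.65 and 11.73, lay with the WFS1 line (8.11-fold lower in TMEM38A KD MTs; log2 ratio -3.02, SE 0.13, adjusted p 3.68e-11). Mgp, matrix Gla protein, an inhibitor of calcification, read 8.46, 8.43 and 8.19 in TMEM38A KD MTs and 11.09, 11.27 and 11.19 in WFS1 KD MTs, with control MTs at 11.87, 11.19 and 11.49 (log2 ratio -2.82, SE 0.33, adjusted p 6.3e-06). The TMEM38A cultures were thus the low ones for both. Fn1, fibronectin, read 9.20, 9.42 and 9.52 in TMEM38A KD MTs and 11.69, 11.72 and 11.57 in WFS1 KD MTs (log2 ratio -2.28, SE 0.25, adjusted p 3.33e-06), and Fbln2, the elastic fibre protein fibulin 2, read 6.90, 7.00 and 7.03 in TMEM38A KD MTs and 9.26, 9.12 and 9.07 in WFS1 KD MTs (log2 ratio -2.18, SE 0.20, adjusted p 3.59e-07). Fn1 in control MTs read 11.65, 11.84 and 12.14 and Fbln2 8.53, 8.27 and 8.52, so these also lay apart from the controls in the TMEM38A line. Ccn2, a matricellular growth factor, had another pattern: it read 10.39, 10.42 and 10.29 in TMEM38A KD MTs and 11.74, 11.74 and 11.83 in WFS1 KD MTs, both above control MTs at 9.36, 9.47 and 9.38 (log2 ratio -1.40, SE 0.36, adjusted p 0.00807). Lama5, a basement membrane laminin chain, was the member called higher (log2 ratio 0.57, SE 0.14, adjusted p 0.00505).

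Of 23 matrix proteases and inhibitors tested, 9 were lower (39.1%) and none was higher, with a median of -0.23. That median was -0.41 and -0.68 at normexp offsets of 50 and 16, -0.38 with median scaling, -0.86 with signal required in all 6 arrays and -0.14 with probes averaged. Mmp2, the gelatinase that degrades type IV collagen, had log2 signals of 6.85, 6.88 and 6.87 in TMEM38A KD MTs and 9.58, 9.84 and 9.53 in WFS1 KD MTs (6.9-fold lower; log2 ratio -2.79, SE 0.29, adjusted p 1.58e-06), and control MTs read 9.38, 9.02 and 9.35. Genes of tissue inhibitors of such proteases had the same direction. Timp3 read 8.04, 7.96 and 7.95 in TMEM38A KD MTs and 10.50, 10.54 and 10.57 in WFS1 KD MTs (log2 ratio -2.55, SE 0.20, adjusted p 5.52e-08) and Timp1 read 9.19, 9.09 and 8.96 in TMEM38A KD MTs and 11.43, 11.46 and 11.45 in WFS1 KD MTs (log2 ratio -2.36, SE 0.21, adjusted p 2.43e-07), with control MTs at 9.85, 9.70 and 9.82 and 11.97, 11.59 and 11.62. Adamts4, which cleaves aggrecan-type proteoglycans, differed by -1.56 (adjusted p 0.000377).

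Fibroblast markers moved with the matrix genes in part. Of 11 tested (14 listed), 4 were lower (S100a4, Dcn, Cd248 and Pdgfrb) and none was higher, and the mean log2 signal over the list was 7.38 to 7.44 in the TMEM38A cultures, 7.67 to 7.73 in the WFS1 cultures and 7.60 to 7.66 in control MTs. The call of Pdgfrb (-0.64) was lost in 5 of the 6 fits that left out 1 culture, at -0.66 to -0.60 there. Of the defining fibroblast markers, Pdgfra read 7.10, 7.02 and 7.20 in TMEM38A KD MTs and 7.12, 7.03 and 7.00 in WFS1 KD MTs and was not called, Dpt was not above background in any culture of either line, and no probe of Thy1, Fap or Tcf21 passed the filter. The part of other cells in the matrix result was not tested. Undifferentiated MB and satellite cell markers showed no such shift in calls, with 1 of 17 tested higher (Sdc4, 0.52) and 1 lower (Vcam1). The Sdc4 call was lost without TMEM38A replicate 1 (0.49) and without WFS1 replicate 1 (0.50). The list mean was 7.17 to 7.21 in the TMEM38A cultures and 7.18 to 7.25 in the WFS1 cultures. Of the 17, 7 were above background in all 6 cultures and 4 in none of them, so those 4 could hardly show a shift. Calls lower ran from 0 to 4 over the alternatives. No adipocyte (6 tested), osteoblast (5) or immune cell marker (4) was called in the fit over 21 arrays. Of these, only 2, 2 and 1 were above background in all 6 cultures, so the lack of calls says little. The lipid droplet gene Plin4, on the adipocyte list, differed by 0.57 (adjusted p 0.117) and was called higher in 6 alternatives, among them the fits of only the 6 arrays and of the 15 shRNA arrays, with an adjusted p over all alternatives between 6.81e-08 and 0.238. Laptm5, on the immune list, was called at normexp offset 16 (0.79).

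Chemokines attract leukocytes and are induced in muscle cells by injury and by NF-kappa B signalling. Of 25 chemokine and cytokine genes tested (31 listed), 8 were lower in TMEM38A KD MTs (32%) and none was higher. Cxcl1, a neutrophil chemoattractant and 1 of the study's candidate genes, had the largest difference of any gene: its log2 signal was 6.53, 6.59 and 6.56 in TMEM38A KD MTs and 10.76, 10.80 and 10.84 in WFS1 KD MTs. The 3 WFS1 cultures stood alone, since control MTs read 6.62, 6.71 and 6.59, and the TMEM38A signal was not above background in any culture (at least 18.4-fold lower; log2 ratio -4.24, SE 0.10, adjusted p 1.69e-14). Ccl7 read 6.50, 6.59 and 6.46 in TMEM38A KD MTs and 8.80, 8.69 and 8.85 in WFS1 KD MTs (at least 4.53-fold lower; log2 ratio -2.26, SE 0.22, adjusted p 1.05e-06), and Ccl2, the monocyte attractant MCP-1, read 6.55, 6.50 and 6.61 in TMEM38A KD MTs and 8.19, 7.91 and 8.19 in WFS1 KD MTs (log2 ratio -1.55, SE 0.067, adjusted p 2.81e-11). Again control MTs, at 6.83, 6.68 and 6.94 and 6.53, 6.43 and 6.50, lay close to the TMEM38A line. Of the TMEM38A cultures, 1 of 3 was above background for each of Ccl2, Cxcl12 and Il6. Cxcl12, which guides CXCR4-bearing cells, read 6.66, 6.59 and 6.51 in TMEM38A KD MTs and 8.40, 8.52 and 8.40 in WFS1 KD MTs (log2 ratio -1.85, SE 0.18, adjusted p 6.28e-07) with control MTs between the lines at 7.46, 7.22 and 7.19. Of the 25 genes, 10 were above background in all 6 cultures, and a gene could pass the filter through 1 line alone, so a requirement of signal in all 6 left 1 of the 8 calls.

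Acute phase and innate response genes had the same direction for 6 of 23 tested (26.1%; 4 with signal required in all 6 arrays), with 1 higher (Lbp, which binds lipopolysaccharide, log2 ratio 0.57). Saa3, the acute phase serum amyloid made outside the liver, had log2 signals of 6.61, 6.52 and 6.60 in TMEM38A KD MTs and 10.01, 10.16 and 10.24 in WFS1 KD MTs, with control MTs at 6.57, 6.59 and 6.56 (log2 ratio -3.56, SE 0.056, adjusted p 4.13e-17). The WFS1 cultures alone were high, and 2 of 3 TMEM38A cultures were above background, so no fold is given. Serping1, the complement C1 inhibitor, read 7.14, 7.11 and 7.08 in TMEM38A KD MTs and 8.72, 8.94 and 8.64 in WFS1 KD MTs (log2 ratio -1.66, SE 0.16, adjusted p 6.28e-07). Nfkbia, the NF-kappa B inhibitor that is itself a target of that factor, read 7.23, 7.37 and 7.45 in TMEM38A KD MTs and 8.32, 8.52 and 8.52 in WFS1 KD MTs against 7.36, 7.45 and 7.46 in control MTs (log2 ratio -1.11, SE 0.19, adjusted p 0.000272), and Socs3, the feedback inhibitor of cytokine receptors, read 7.98, 8.04 and 7.86 in TMEM38A KD MTs and 8.96, 9.03 and 9.13 in WFS1 KD MTs against 8.03, 8.10 and 7.90 (log2 ratio -1.08, SE 0.19, adjusted p 0.000456). For Nfkbia and Socs3 too the WFS1 cultures were the high ones. Il6 was dim in both lines, at 6.63, 6.57 and 6.53 in TMEM38A KD MTs and 7.44, 7.40 and 7.47 in WFS1 KD MTs (log2 ratio -0.86, SE 0.049, adjusted p 1.01e-09). Interferon response genes were lower for 4 of 28 tested (14.3%), led by the membrane antiviral proteins Ifitm1 (-2.01) and Ifitm3 (-1.92), and the TMEM38A cultures, at 9.33, 9.30 and 9.19 for Ifitm1, lay below control MTs at 11.85, 11.39 and 11.71.

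The start region of Cxcl1, the gene with the largest difference, is shown because NF-kappa B elements in its promoter are well described. The window holds 250 bases before and 50 after the annotated start (RefSeq, GRCm38.p6, chr5:90890995-90891294, plus strand), and capitals mark matches to the kappa B consensus, searched on both strands.
Cxcl1 promoter: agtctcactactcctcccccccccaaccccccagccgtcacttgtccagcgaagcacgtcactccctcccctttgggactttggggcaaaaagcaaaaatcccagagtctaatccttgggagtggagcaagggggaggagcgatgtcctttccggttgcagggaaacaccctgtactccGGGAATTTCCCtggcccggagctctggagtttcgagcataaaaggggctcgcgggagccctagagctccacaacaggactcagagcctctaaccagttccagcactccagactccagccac
Overlapping matches begin 71 bases upstream of the start on the plus strand and 70 bases upstream on the minus strand. The consensus is common, in 8.46% of 32851 RefSeq windows of this length and for 9.55% of 27025 genes with a window. Of 4 windows available for the 8 chemokine and cytokine genes called lower, those of Cxcl1 and Il6 hold it, and of 12 available for genes not called, 4 do. In the acute phase list it occurs for 2 of 4 genes called lower with a window (Nfkbia and Ptx3) and for 5 of 10 not called. A match is a description of the letters and not evidence of binding.

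Contractile protein genes differed in both directions. Myosin heavy and light chains set the speed of a fibre: Myh4 encodes the fastest heavy chain (IIb), Myh7 the slow one, and Myl2 and Myl3 encode the regulatory and essential light chains of slow muscle and ventricle. Of 15 thick filament genes tested, 4 were lower (26.7%) and 4 higher (26.7%) in TMEM38A KD MTs, with a median of 0.02. Myh4 had log2 signals of 7.59, 7.45 and 7.49 in TMEM38A KD MTs and 11.49, 11.30 and 11.37 in WFS1 KD MTs, against 10.53, 10.86 and 10.47 in control MTs (14.7-fold lower; log2 ratio -3.88, SE 0.25, adjusted p 5.45e-09). Myl3 read 6.55, 6.50 and 6.51 in TMEM38A KD MTs and 9.38, 9.63 and 9.54 in WFS1 KD MTs against 7.39, 7.19 and 7.18 in control MTs, and no TMEM38A culture was above background (at least 7.56-fold lower; log2 ratio -3.00, SE 0.086, adjusted p 1.09e-13). The TMEM38A line was thus lowest for both. On the other side Myl2 read 13.55, 13.58 and 13.45 in TMEM38A KD MTs and 11.40, 11.45 and 11.43 in WFS1 KD MTs against 10.89, 10.68 and 10.78 in control MTs (4.29-fold higher; log2 ratio 2.10, SE 0.22, adjusted p 1.88e-06), and Myh7 read 10.03, 10.09 and 10.26 in TMEM38A KD MTs and 8.33, 8.40 and 8.51 in WFS1 KD MTs against 7.17, 7.24 and 7.23 (3.27-fold higher; log2 ratio 1.71, SE 0.11, adjusted p 4.99e-09). For Myl2 and Myh7, both KD lines lay above the controls, and the TMEM38A line further. So the slow light chains Myl2 and Myl3 differed in opposite directions, as did the heavy chains Myh7 and Myh4. The fast light chains Myl1 (-0.13) and Mylpf (0.036) were not called (adjusted p 0.261 and 0.853). Myh1, the heavy chain that the study used to mark MTs, was also called higher, unlike Myh4. That call was lost without TMEM38A replicate 1 (0.51) or 3 (0.51) and without WFS1 replicate 2 (0.46) or 3 (0.52). Median scaling and averaging of probes also ended it. The call of Mylk2, the skeletal myosin light chain kinase (log2 ratio 1.03, SE 0.22, adjusted p 0.00203), was lost when all probes of a gene were averaged (0.35).

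Thin filament and Z disc genes were lower for 8 of 27 tested (29.6%), with none higher. Tpm1, alpha-tropomyosin, had log2 signals of 8.45, 8.38 and 8.24 in TMEM38A KD MTs and 10.32, 10.26 and 9.84 in WFS1 KD MTs (log2 ratio -1.78, SE 0.21, adjusted p 7.57e-06), with control MTs at 10.41, 9.87 and 10.09. Csrp3, the muscle LIM protein of the Z disc, read 11.22, 11.10 and 11.06 in TMEM38A KD MTs and 12.46, 12.59 and 12.54 in WFS1 KD MTs against 11.01, 10.77 and 11.03 in control MTs (log2 ratio -1.40, SE 0.19, adjusted p 3.45e-05), and Myoz2, calsarcin-1, which ties calcineurin to alpha-actinin and is enriched in slow muscle, read 10.98, 10.95 and 10.83 in TMEM38A KD MTs and 12.20, 12.19 and 12.21 in WFS1 KD MTs against 11.74, 11.41 and 11.49 (log2 ratio -1.28, SE 0.14, adjusted p 3.42e-06). Csrp3 was therefore highest in the WFS1 cultures, with the TMEM38A cultures near the controls, and Myoz2 was lowest in the TMEM38A cultures. The actin-binding repeat protein Xirp2 differed by -1.03 (adjusted p 2.23e-10). The remaining calls (Ankrd2, Lmod2, Ankrd1 and Myot) lay between -0.74 and -0.57.

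Igfn1, a Z disc protein of skeletal muscle, had the second largest rise after Wfs1 itself. It read 9.93, 10.20 and 10.14 in TMEM38A KD MTs and 7.30, 7.61 and 7.75 in WFS1 KD MTs, with control MTs at 7.81, 8.44 and 8.19 (5.81-fold higher; log2 ratio 2.54, SE 0.14, adjusted p 6.44e-10). Cgnl1, the junctional protein paracingulin, read 9.95, 9.87 and 9.86 in TMEM38A KD MTs and 7.47, 7.52 and 7.54 in WFS1 KD MTs against 8.38, 8.36 and 8.18 in control MTs (log2 ratio 2.38, SE 0.11, adjusted p 6.13e-11). In both, the controls lay between the lines. Gpx3, a secreted glutathione peroxidase, read 11.38, 11.36 and 11.37 in TMEM38A KD MTs and 9.24, 9.31 and 9.17 in WFS1 KD MTs, and there the TMEM38A cultures alone left the control level of 9.00, 9.08 and 9.05 (log2 ratio 2.13, SE 0.21, adjusted p 8.76e-07). Gas6, the ligand of the TAM receptor tyrosine kinases, had the same pattern, at 8.64, 8.58 and 8.63 in TMEM38A KD MTs and 6.90, 6.92 and 6.85 in WFS1 KD MTs against 6.90, 6.91 and 7.08 in control MTs (log2 ratio 1.73, SE 0.19, adjusted p 4.02e-06).

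Other large differences lay outside the lists. Lbh, a transcription cofactor of heart and limb development, read 8.10, 8.31 and 8.25 in TMEM38A KD MTs and 11.05, 10.78 and 10.86 in WFS1 KD MTs against 8.81, 8.75 and 8.54 in control MTs (log2 ratio -2.68, SE 0.27, adjusted p 1.17e-06), and Cav1, the coat protein of caveolae in many cell types, read 6.98, 6.96 and 7.07 in TMEM38A KD MTs and 9.76, 9.54 and 9.65 in WFS1 KD MTs against 9.03, 8.90 and 8.57 (log2 ratio -2.64, SE 0.22, adjusted p 1.58e-07). Both were lowest in the TMEM38A line and highest in the WFS1 line. Nmrk2, a muscle kinase of the NAD salvage pathway, read 9.51, 9.46 and 9.24 in TMEM38A KD MTs and 7.53, 7.53 and 7.60 in WFS1 KD MTs against 8.02, 7.79 and 7.99 in control MTs (log2 ratio 1.85, SE 0.12, adjusted p 6.12e-09), and Slc6a9, a glycine transporter, read 10.72, 10.74 and 10.69 in TMEM38A KD MTs and 8.74, 9.00 and 8.86 in WFS1 KD MTs against 9.38, 9.73 and 9.52 (log2 ratio 1.85, SE 0.14, adjusted p 5.25e-08). These ran the other way, with the controls again between the lines. Sobp, Gcnt1, Phldb2 and Syngr1 were higher by 1.75 to 2.14.

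**Figure D3:**
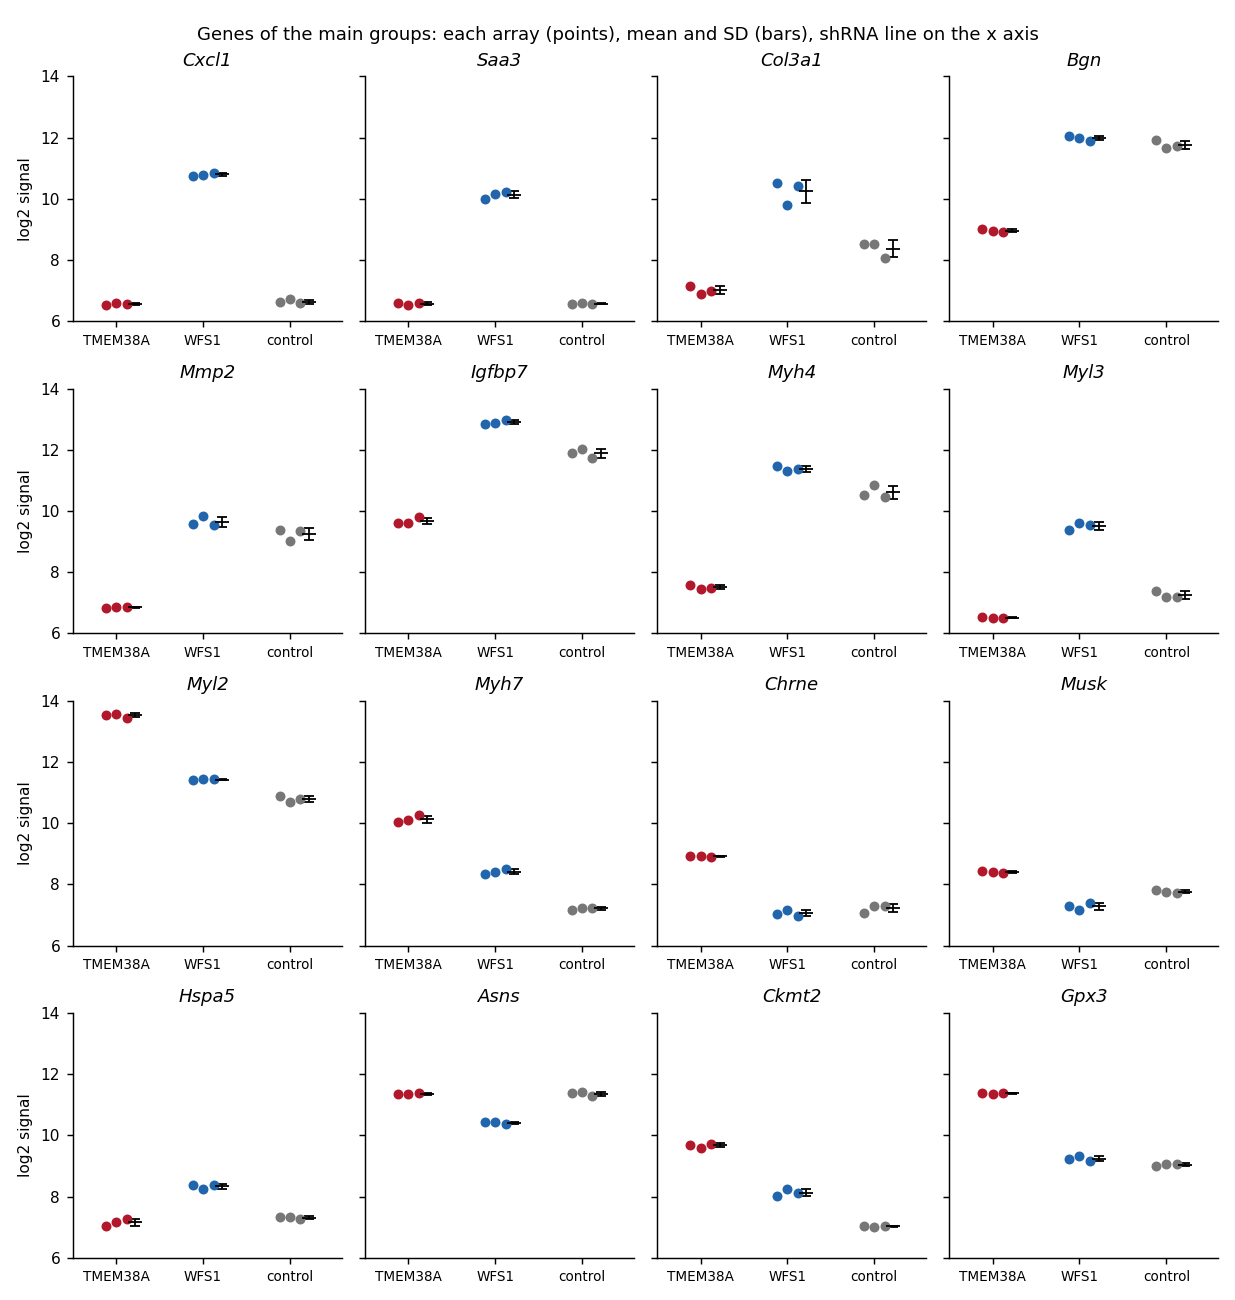
Log2 signal (y axis, 6 to 14 in every panel) of 16 genes in each array of TMEM38A KD, WFS1 KD and control shRNA MTs (x axis), as points, with the mean and SD of 3 arrays as bars. Of these 3, Cxcl1 and Saa3 are high in the WFS1 line alone, Bgn and Mmp2 are low in the TMEM38A line alone, and Myl2 and Myh7 run opposite to Myh4 and Myl3.

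The neuromuscular junction genes that were called were, with 1 exception, higher in TMEM38A KD MTs: of 18 tested, 7 were called higher (38.9%) and 1 lower, with a median of 0.20. At the junction, agrin released by the nerve acts through Lrp4 and the kinase MuSK, with its adaptor Dok7, to cluster acetylcholine receptors, whose epsilon subunit replaces the fetal gamma subunit as muscle matures. Chrne, which encodes the epsilon subunit, had log2 signals of 8.91, 8.94 and 8.91 in TMEM38A KD MTs and 7.05, 7.18 and 6.97 in WFS1 KD MTs, with control MTs at 7.07, 7.30 and 7.31 (3.61-fold higher; log2 ratio 1.85, SE 0.069, adjusted p 3.5e-12). The TMEM38A cultures alone stood high. Musk read 8.45, 8.40 and 8.38 in TMEM38A KD MTs and 7.28, 7.17 and 7.40 in WFS1 KD MTs against 7.81, 7.77 and 7.70 in control MTs (log2 ratio 1.12, SE 0.085, adjusted p 4.56e-08), and Etv5, an ETS factor of synaptic transcription in mouse muscle, read 8.20, 8.31 and 8.35 in TMEM38A KD MTs and 6.84, 6.93 and 6.89 in WFS1 KD MTs against 7.26, 7.25 and 7.28 (log2 ratio 1.40, SE 0.099, adjusted p 1.59e-08). Dok7 (0.68), Ache, the acetylcholinesterase (0.68), and Prkar1a, a protein kinase A subunit (0.81), were also higher (adjusted p 5.79e-07, 7.97e-06 and 0.000226). Chrnd, the delta subunit, was called at 0.58 (adjusted p 0.0378) but lost its call without any 1 of the 6 cultures, at 0.53 to 0.63. The member called lower was Agrn (log2 ratio -0.63, SE 0.13, adjusted p 0.00169), and the gamma, alpha and beta receptor subunit genes Chrng (0.021), Chrna1 (0.19) and Chrnb1 (0.20) were not called.

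The start region of Chrne is shown because an N-box, the ETS site of synaptic genes, is known in its promoter. The window (RefSeq, GRCm38.p6, chr11:70619145-70619444, minus strand, printed 5′ to 3′ along the gene) has the N-box CCGGAA in capitals, searched on both strands.
Chrne promoter: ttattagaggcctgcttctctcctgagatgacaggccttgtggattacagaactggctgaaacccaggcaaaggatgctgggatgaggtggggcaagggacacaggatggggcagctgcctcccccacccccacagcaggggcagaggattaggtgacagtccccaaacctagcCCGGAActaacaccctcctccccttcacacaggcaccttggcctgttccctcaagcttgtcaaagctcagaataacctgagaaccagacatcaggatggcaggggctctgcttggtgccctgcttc
The N-box begins 76 bases upstream of the start. These 6 letters are common, in 14.9% of all windows and for 16.7% of 27025 genes with a window. Of 6 junction genes called higher with a window they occur in those of Chrne and Prkar1a. They occur in none of 4 junction genes with a window that were not called, nor in that of Agrn, called lower. The other genes called higher with a window, Musk, Dok7, Ache and Etv5, hold none in these 300 bases, and Chrnd has no entry.

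Muscle energy metabolism genes were called higher more than lower. Of 29 muscle metabolism genes tested, 6 were higher (20.7%) and 1 lower. Ckmt2, the sarcomeric mitochondrial creatine kinase, read 9.69, 9.60 and 9.73 in TMEM38A KD MTs and 8.01, 8.24 and 8.13 in WFS1 KD MTs, both above control MTs at 7.05, 7.02 and 7.03 (log2 ratio 1.54, SE 0.049, adjusted p 5.31e-13). Mb, the oxygen-binding myoglobin, read 13.93, 13.83 and 13.91 in TMEM38A KD MTs and 12.74, 12.71 and 12.85 in WFS1 KD MTs against 12.92, 12.87 and 12.87 in control MTs (log2 ratio 1.12, SE 0.087, adjusted p 5.25e-08), and Car3, the carbonic anhydrase of slow muscle, read 10.51, 10.69 and 10.71 in TMEM38A KD MTs and 8.92, 8.92 and 8.80 in WFS1 KD MTs against 8.86, 8.74 and 8.98 (log2 ratio 1.76, SE 0.29, adjusted p 0.000213). Both stood near control level in the WFS1 cultures and above it in the TMEM38A cultures. Ckm, the cytosolic creatine kinase, differed less (log2 ratio 0.68, SE 0.14, adjusted p 0.00147), and the member called lower was the glycolytic enzyme gene Ldha (log2 ratio -0.58, SE 0.07, adjusted p 9.3e-06). Oxidative phosphorylation genes had a median of 0.25 over 22 tested, with 4 higher (18.2%) and none lower, namely Uqcrc1 (0.62), Cyc1 (0.53), Ndufa9 (0.52) and Cycs (0.51). These sat close to the threshold: without TMEM38A replicate 1 Uqcrc1 alone was called, with Cyc1 at 0.49, Ndufa9 at 0.48 and Cycs at 0.45. Cycs was also lost without WFS1 replicate 2 (0.41) and Ndufa9 without WFS1 replicate 3 (0.44). Atp5a1, the lowest member (-0.69), was not called over 21 arrays. It was called lower in several alternatives, among them the fits of only the 6 arrays and of the 15 shRNA arrays. Its adjusted p over all alternatives ran between 1.34e-06 and 0.642.

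Calcium handling genes were called in both directions. Of the pumps, buffers and triad proteins 5% were lower and none higher. Of the channel and calcium release genes 10.5% were higher and 10.5% lower, against 3.82% and 5.12% of all genes. The lower share includes Tmem38a, whose call was set by the choice of lines. With probes averaged, 0 of that list were called higher. Among 20 pumps, buffers and triad proteins tested, Casq2 was called, which encodes calsequestrin 2, a calcium buffer of slow and cardiac muscle. It read 10.39, 10.25 and 10.20 in TMEM38A KD MTs and 11.12, 11.45 and 11.31 in WFS1 KD MTs with control MTs at 11.40, 11.25 and 11.52 (log2 ratio -1.01, SE 0.15, adjusted p 0.0001). Pvalb, the cytosolic calcium buffer of fast muscle, read 11.06, 11.01 and 10.99 in TMEM38A KD MTs and 10.04, 10.03 and 10.12 in WFS1 KD MTs without overlap, and was not called in the fit over all 21 arrays (log2 ratio 0.96, adjusted p 0.207). Pvalb was called in 4 alternatives, the fits of only the 6 arrays with and without a replicate block, that of the 15 shRNA arrays and that with array weights, and its adjusted p over all alternatives ran between 4.07e-09 and 0.325. The calcium pumps Atp2a1 (0.31) and Atp2a2 (-0.014) and the ryanodine receptor Ryr1 (-0.055) were not called. The list of channel and calcium release genes, with 19 tested, also holds genes of other membranes, such as Orai1, Trpc1 and Mcoln1. In it 2 were higher, neither of them a reticulum channel. They were the store calcium sensor Stim2 (0.52, lost at 0.47 without WFS1 replicate 3) and the mitochondrial ion exchanger Letm1 (0.67). The 2 lower were Tmem38a itself and Tmem109, a channel protein of the reticulum and nuclear envelope (-0.73, adjusted p 0.00484). Tmem38b, the widely expressed paralogue of Tmem38a, read 12.10, 12.11 and 12.24 in TMEM38A KD MTs and 11.80, 11.94 and 11.95 in WFS1 KD MTs (adjusted p 0.29). Of 10 genes listed as wolframin partners or Wolfram genes and tested, Atp1b1, a sodium pump subunit, was called besides Wfs1 (log2 ratio 0.66, SE 0.13, adjusted p 0.00134).

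Chaperone genes and the ATF4 branch of the reticulum stress response differed in opposite directions. Unfolded proteins in the reticulum raise chaperones through ATF6 and XBP1, while phosphorylation of eIF2 raises amino acid enzymes through ATF4. Of 15 chaperone and folding genes tested, 3 were lower in TMEM38A KD MTs (20%) and none was higher, with a median of -0.25. Hspa5, the chief chaperone BiP, read 7.05, 7.18 and 7.27 in TMEM38A KD MTs and 8.39, 8.25 and 8.38 in WFS1 KD MTs, with control MTs at 7.33, 7.34 and 7.26 (2.25-fold lower; log2 ratio -1.17, SE 0.29, adjusted p 0.00652), so the WFS1 cultures were the high ones. Creld2 read 8.62, 8.64 and 8.48 in TMEM38A KD MTs and 9.15, 9.33 and 9.11 in WFS1 KD MTs (log2 ratio -0.62, SE 0.096, adjusted p 0.000128), here with the control at 9.39, 9.25 and 9.32 beside the WFS1 line. The call of Pdia3, a disulphide isomerase (-0.57, adjusted p 0.048), was lost without any 1 of the 6 cultures, at -0.63 to -0.53. The sensors Atf6 (-0.039), Ern1 (-0.29) and Eif2ak3 (0.053) and the effector Xbp1 (-0.078) were not called. In degradation, Selenos, which anchors the p97 ATPase to the reticulum, was lower (log2 ratio -0.97, SE 0.13, adjusted p 2.94e-05), as were Os9 (-0.72) and Edem2 (-0.58), and Vcp, which encodes p97, was higher (0.58, 0.50 and no longer called without WFS1 replicate 1).

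In the ATF4 branch, 7 of 18 genes tested were higher in TMEM38A KD MTs (38.9%) and 1 was lower, with a median of 0.29. Without any 1 of the 6 cultures, 5 to 6 were called higher. The call of Psat1 was lost in each of those fits, at 0.46 to 0.62. That of Shmt2 was lost without TMEM38A replicate 2 (0.49) and without WFS1 replicate 1 (0.50). Median scaling ended both calls, and averaging of probes ended that of Shmt2. Asns, asparagine synthetase, had log2 signals of 11.35, 11.34 and 11.38 in TMEM38A KD MTs and 10.43, 10.44 and 10.38 in WFS1 KD MTs, and control MTs, at 11.37, 11.42 and 11.27, lay with the TMEM38A line (log2 ratio 0.94, SE 0.19, adjusted p 0.00164). Mthfd2, an enzyme of mitochondrial folate metabolism, read 11.43, 11.54 and 11.58 in TMEM38A KD MTs and 10.37, 10.46 and 10.51 in WFS1 KD MTs against 11.15, 11.34 and 11.20 in control MTs (log2 ratio 1.06, SE 0.24, adjusted p 0.00311). The WFS1 cultures were thus the low ones for both. Phgdh, which starts serine synthesis, differed by 0.76 (adjusted p 0.00241), and the hormone gene Fgf21 by 0.65 (adjusted p 0.000113). Fgf21 was below the control level of 9.84, 9.68 and 9.56 in both lines, at 9.27, 9.10 and 9.16 in TMEM38A KD MTs and 8.53, 8.61 and 8.45 in WFS1 KD MTs. Atf4 itself read 11.85, 11.92 and 11.88 in TMEM38A KD MTs and 12.45, 12.42 and 12.40 in WFS1 KD MTs and was not called (adjusted p 0.0526), Ddit3, the gene of CHOP, was not called (-0.096, adjusted p 0.896), and the member called lower was Atf3 (log2 ratio -0.67, SE 0.047, adjusted p 1.86e-08).

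**Figure D4:**
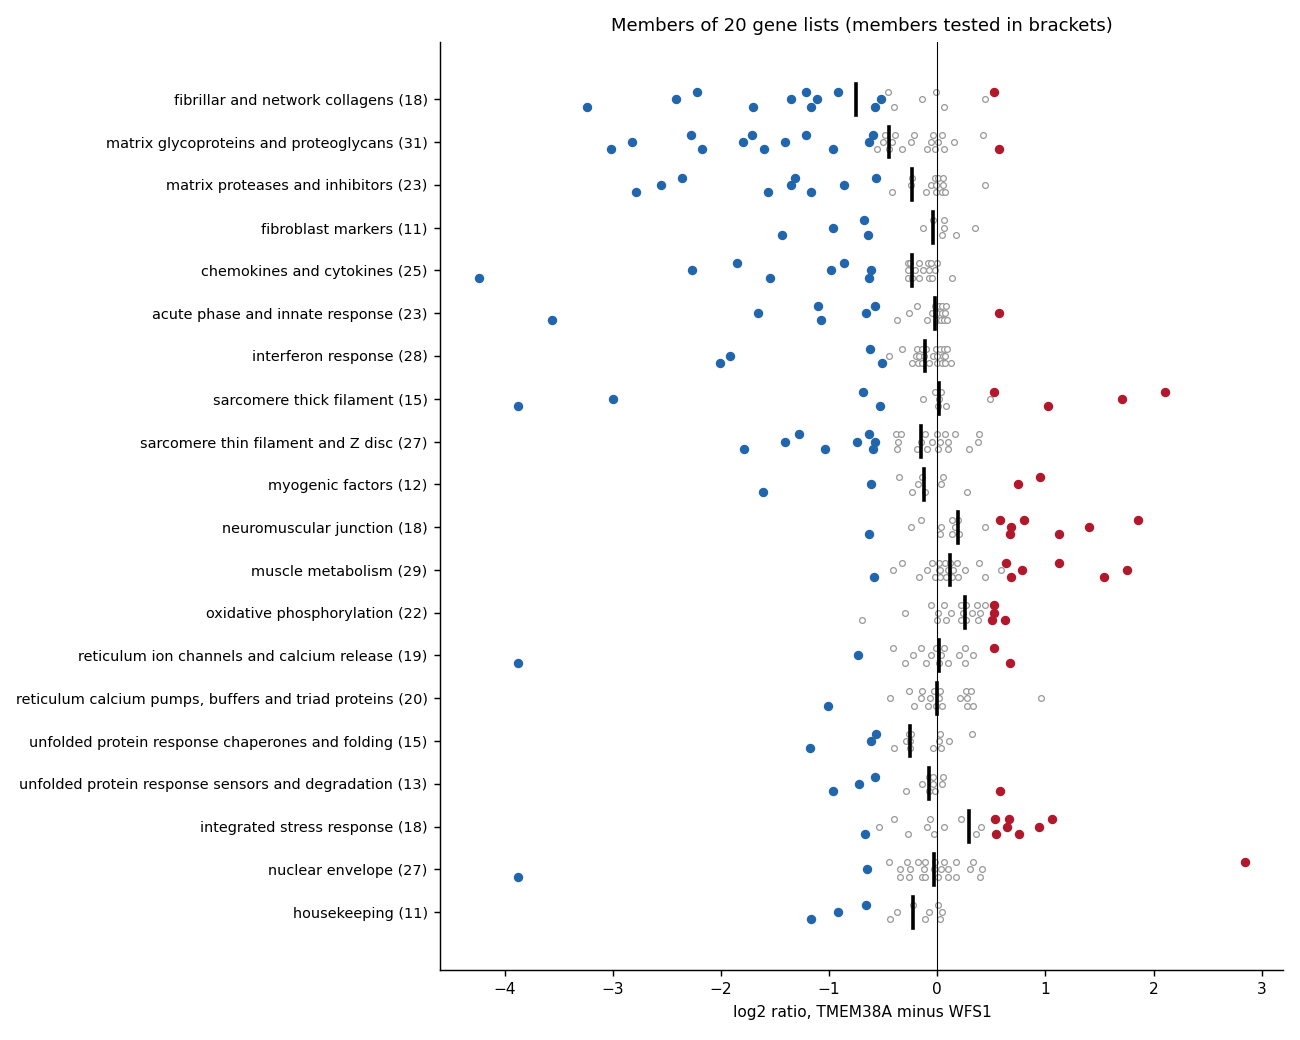
Log2 ratio of TMEM38A to WFS1 KD MTs (x axis) for each tested member of 20 gene lists (rows), with filled points for called genes (red higher, blue lower), open points for the rest and a black bar at the median of the list. Collagens have a median of -0.75 and 11 of 18 members called lower, while junction and ATF4-branch genes have 7 of 18 called higher each.

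Myogenic regulators were split. Myod1, the factor that commits cells to muscle, read 9.49, 9.54 and 9.63 in TMEM38A KD MTs and 8.60, 8.59 and 8.61 in WFS1 KD MTs (log2 ratio 0.95, SE 0.12, adjusted p 2.14e-05) and its partner in muscle promoters Tead4 was also higher (0.75). Myf6, which encodes MRF4 of mature fibres, read 7.37, 7.19 and 7.25 in TMEM38A KD MTs and 8.88, 9.03 and 8.73 in WFS1 KD MTs against 7.60, 7.40 and 7.33 in control MTs (log2 ratio -1.61, SE 0.13, adjusted p 1.08e-07), and Myog, myogenin, was lower (log2 ratio -0.61, SE 0.16, adjusted p 0.00968). Myf6 was thus high only in the WFS1 cultures, and the call of Myog was lost without WFS1 replicate 2 (-0.49). Vgll2, a muscle cofactor of TEAD factors, behaved as Myf6 did, at 7.58, 7.76 and 7.74 in TMEM38A KD MTs and 10.44, 10.32 and 10.51 in WFS1 KD MTs against 7.79, 7.94 and 7.88 in control MTs (6.62-fold lower; log2 ratio -2.73, SE 0.076, adjusted p 1.05e-13). Of 14 inhibitors of myogenesis tested, Hes1, the Notch effector, was higher (log2 ratio 0.99, SE 0.14, adjusted p 4.05e-05), and the zinc finger repressors Snai1 (-0.95) and Snai2 (-0.68) were lower (adjusted p 1.45e-05 and 0.000893). Cdh15, the muscle cadherin, was the 1 of 15 fusion genes called (log2 ratio 0.87, SE 0.15, adjusted p 0.000463).

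Several IGF binding protein genes were lower. Of 24 genes of the IGF, growth hormone and mTOR list tested, 4 were lower (16.7%) and none was higher. Igfbp7 read 9.63, 9.62 and 9.79 in TMEM38A KD MTs and 12.85, 12.89 and 12.97 in WFS1 KD MTs against 11.89, 12.03 and 11.73 in control MTs (9.33-fold lower; log2 ratio -3.22, SE 0.22, adjusted p 1.14e-08), and Igfbp4, which holds IGF away from its receptor, read 7.14, 7.06 and 7.00 in TMEM38A KD MTs and 8.98, 8.95 and 8.96 in WFS1 KD MTs against 9.00, 8.85 and 8.74 (log2 ratio -1.90, SE 0.21, adjusted p 4.44e-06). For Igfbp7 the lines lay on either side of the controls, and for Igfbp4 the TMEM38A line alone was low. Igfbp6 (-1.08) and Tsc1 (-0.56) completed the calls, of which that of Tsc1 was lost without any 1 of the 6 cultures, at -0.59 to -0.52.

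Proliferation genes held few calls. Of 29 DNA replication genes tested, Orc6 was higher (0.92, adjusted p 2.22e-06) and Mcm6 lower (-1.09, adjusted p 0.0374, lost without any 1 culture, at -1.13 to -1.04), and of 24 mitosis genes Kif23 alone was called (-0.56, lost without TMEM38A replicate 3 at -0.52 and without WFS1 replicate 2 at -0.43). Both shares lie near or under the 3.82% and 5.12% of all genes. Pcna, the sliding clamp of DNA polymerase, was not called over 21 arrays (-0.99, adjusted p 0.0784) but was called lower in 6 alternatives, among them the fits of only the 6 arrays and of the 15 shRNA arrays, with an adjusted p over all alternatives between 7.1e-06 and 0.203. The DNA replication genes called lower were 5 at normexp offset 16. Of 22 cell cycle exit and p53 genes, 3 were higher, among them Bbc3, which encodes the apoptosis protein PUMA (1.10), and 3 were lower, among them the cyclin gene Ccnd1 (-0.74). Of 27 nuclear envelope genes tested, Nrm, nurim, was called lower (log2 ratio -0.65, SE 0.13, adjusted p 0.00136) besides the 2 targets. Of 18 muscle ubiquitin ligase and autophagy genes, 4 were higher (22.2%), among them the lysosomal protease gene Ctsl (0.94), and 3 were lower (16.7%), among them Map1lc3b, which encodes the autophagosome protein LC3B (-0.79). Without WFS1 replicate 1, 2 of that list were called higher, and without TMEM38A replicate 1, 2 were called lower. The call of Map1lc3b was also lost with median scaling. In other lists, 3 of 16 antigen presentation genes were lower (18.8%) and 1 higher, 3 of 18 immediate early genes were lower (16.7%) and 1 higher, 1 of 16 cholesterol synthesis genes was higher, and none of 10 sodium and potassium channel genes was called. The cholesterol synthesis call, Hsd17b7, was lost with probes averaged (0.31). Nsdhl, Idi1 and Insig1 were not called over 21 arrays. In the fit of only the 6 arrays, Nsdhl and Idi1 were called lower and Insig1 higher. Of 11 genes often used as references, 3 were lower, Pgk1 (-1.17), Tubb5 (-0.92) and Actb (-0.66), while Gapdh was not called (0.023). The call of Tubb5 was lost without WFS1 replicate 2 (-0.87) and that of Actb without TMEM38A replicate 1 (-0.60) or WFS1 replicate 2 (-0.58), and averaging probes also ended that of Actb.

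Among the 8 genes that the study took as candidates for regulation by position, 3 were lower (37.5%), 1 higher (12.5%) and 4 not called. Over all genes the shares were 5.12% and 3.82%. The study picked these 8 partly from its KD array results, so their calls are not independent of these data and are a description. Besides Cxcl1, Bdnf, a neurotrophin, read 6.81, 6.78 and 6.72 in TMEM38A KD MTs and 8.02, 7.84 and 8.04 in WFS1 KD MTs with control MTs between the lines at 7.11, 7.16 and 7.13 (log2 ratio -1.20, SE 0.096, adjusted p 8.82e-08), and Vcam1, an adhesion molecule of satellite cells, read 7.09, 7.18 and 6.95 in TMEM38A KD MTs and 7.86, 7.71 and 7.70 in WFS1 KD MTs (log2 ratio -0.68, SE 0.13, adjusted p 0.000907). The exception in direction was Efna5, an ephrin ligand, at 7.82, 7.94 and 7.87 in TMEM38A KD MTs and 7.01, 7.05 and 7.09 in WFS1 KD MTs with control MTs at 7.22, 7.20 and 7.21 (log2 ratio 0.83, SE 0.13, adjusted p 0.000196). Nid1 (-0.39), Ptn (-0.037), Msc (0.11) and Ddr2 (0.18) were not called. Averaging all probes of a gene ended the calls of Bdnf (-0.49) and Vcam1 (-0.37). Nid1 was called lower at normexp offset 50 (-0.59) and 16 (-0.84). None of the study's 7 positioning examples was called in the fit of the deposited values: Cdk14 (-0.41), Actc1 (-0.36), Hgf (-0.24), Ryr3 (0.017), Dbf4 (0.21), Ttn (0.38) and Myo18b (0.41). Under alternatives, Cdk14 was called lower at normexp offset 50 (-0.60), Cdk14, Hgf and Dbf4 were called at offset 16 (-0.84, -0.84 and 0.53), and Actc1 was called lower with probes averaged (-0.76).

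Genes that differed between the lines were often genes of myogenesis. Of the 528 genes higher in TMEM38A KD MTs, 33.1% were also higher in untransduced MTs than in MBs and 12.1% lower, and of the 708 genes lower in TMEM38A KD MTs, 29.4% were higher in MTs and 25.1% lower. Over all genes tested the shares were 11.5% and 13%. Thus genes that myogenesis raised lay on both sides of the difference between the lines, with Mb, Myl2 and Ckm on the higher side and Casq2, Myoz2 and Myh4 on the lower. Among genes over 1 log2 unit apart, 55.3% of those higher in TMEM38A KD MTs were higher in MTs and 6.58% were lower, and of those lower in TMEM38A KD MTs 34.7% were higher in MTs and 26.2% were lower.

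**Figure D5:**
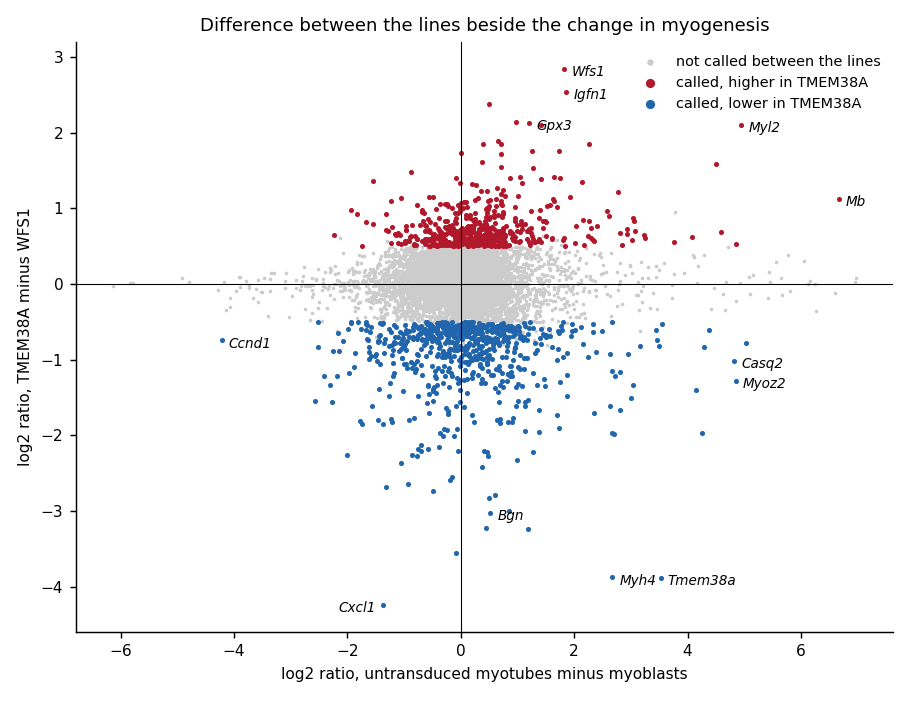
Log2 ratio of TMEM38A to WFS1 KD MTs (y axis) against the log2 ratio of untransduced MTs to MBs (x axis) for the 13817 genes tested, with genes called between the lines in red (higher) and blue (lower). Genes raised in myogenesis, on the right, lie on both sides, from Mb and Myl2 above to Casq2, Myoz2 and Myh4 below.

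On the axis from MBs (0) to untransduced MTs (1), fitted over genes called between those groups, both lines lay at the MT end. The position was 1.056, 1.057 and 1.061 in the TMEM38A cultures, 1.048, 1.046 and 1.047 in the WFS1 cultures, and 1.065, 1.083 and 1.070 in control MTs. The lines differed by 0.0110, with an exact permutation p of 0.1 (2-sided), the smallest that 3 against 3 cultures can give. The direction rested on 1 MB culture: without MB replicate 1 in the axis, the difference was -0.0070.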

How the data were processed

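RNA of 21 C2C12 cultures (3 in each of 7 groups) was measured on Illumina mouse bead arrays. The deposited log2 table was quantile-normalised by the authors with limma and used as it stands. The scanner intensity values, deposited by the authors without normalisation and with no detection p-values, entered only the alternatives and the check of array brightness. A probe was kept if it lay above an array's background (mode plus the 0.05 upper tail of the spread below it) in at least 3 arrays, so a gene could pass through 1 line alone. The brightest probe stood for each gene. The fit was limma (3.58.1, in R 4.3.3) with 1 mean per group, the ratio being TMEM38A minus WFS1, with Benjamini-Hochberg adjustment over 13817 genes, and was tested on simulated data. Where no array of the dim line was above background, the fold is a lower bound, set against the lowest signal above background. The named genes were the 4 targets, 8 candidates, 7 positioning examples, the 15 largest in each direction and up to 4 members per list; others were chosen after their values were seen. The members and lists were chosen with earlier results of these data known. No value column of another series was present (0). The scanner file header calls the control line empty, whereas the labels give a control shRNA.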

Additional observations from a re-analysis of the deposited data

How the results depend on the processing

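The call count was 1170 to 1207 without any 1 of the 6 arrays, with 502 to 529 higher and 661 to 678 lower in TMEM38A KD MTs, and no setting tried called a gene in the opposite direction. Tmem38a stayed between -3.91 and -3.83 and Wfs1 between 2.80 and 2.94 in those fits. Scanner intensities with normexp gave 805 genes higher at an offset of 50, and 2499 calls, 1193 higher and 1306 lower, at an offset of 16. A threshold of 1 log2 unit gave 278 calls, 76 higher and 202 lower. The replicate numbers did not pair the cultures (correlations of deviations 0.0878, -0.0336 and 0.0211), and the fit of only the 6 arrays called 1334 genes, all 1236 among them, both with the replicate block and without it, so the block did not move the count. The percentage of genes higher in TMEM38A that myogenesis raised was 27.2 at offset 50, 19.8 at offset 16 and 55.3 above 1 log2 unit, where 6.58 were lowered. That of genes lower in TMEM38A was 24.8, 19.4 and 34.7 under those settings and 24.7 with median scaling. The difference in position was 0.00586 over all genes, 0.00759 from scanner values at offset 50 and -0.00702 without MB replicate 1. Reversed, among genes not called, were Ryr3 (-0.014 with median scaling and -0.026 with probes averaged, and -0.059 to 0.075 over the arrays left out), Ptn (-0.11 to 0.026), Scn4b (-0.13 to 0.0070) and Ptprc (-0.052 to 0.0077). The cause of these changes was not tested.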

Other observations

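Genes induced by the hypoxia factor HIF-1 were lower in TMEM38A KD MTs than in WFS1 KD MTs. HIF-1 switches cells to glycolysis and raises iron uptake, pH control and blood vessel growth when oxygen is low. This list was chosen after the values were seen, so its counts are a description. Of 46 listed genes tested (52 listed), 25 were called lower (54.3%, against 5.12% of all genes) and 2 higher, with a median log2 ratio of -0.63 against 0.02 over all genes. The mean log2 signal over the list was 8.50 to 8.51 in the TMEM38A cultures, 9.24 to 9.29 in the WFS1 cultures and 8.51 to 8.52 in control MTs, so over the list the WFS1 cultures alone stood apart. Ndrg1, a stress-responsive gene, had log2 signals of 6.93, 6.93 and 7.01 in TMEM38A KD MTs and 9.75, 9.36 and 9.52 in WFS1 KD MTs, and control MTs averaged 7.80 (6.01-fold lower; log2 ratio -2.59, SE 0.20, adjusted p 4.77e-08). Pgk1, phosphoglycerate kinase, read 11.08, 11.09 and 10.96 in TMEM38A KD MTs and 12.36, 12.13 and 12.15 in WFS1 KD MTs, with control MTs at 11.52, 11.26 and 11.35 (log2 ratio -1.17, SE 0.17, adjusted p 6.51e-05). Car9, the carbonic anhydrase of hypoxic cells, read 6.55, 6.58 and 6.53 in TMEM38A KD MTs and 8.32, 8.33 and 8.20 in WFS1 KD MTs, and no TMEM38A culture was above background (at least 3.21-fold lower; log2 ratio -1.73, SE 0.074, adjusted p 2.24e-11). Control MTs, at 6.78, 6.58 and 6.69 for Car9, lay near the TMEM38A line, and for Ndrg1 and Pgk1 between the lines.

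Ppp1r3c, which targets a phosphatase to glycogen, read 7.70, 7.60 and 7.63 in TMEM38A KD MTs and 9.90, 9.73 and 9.91 in WFS1 KD MTs against 7.32, 7.42 and 7.37 in control MTs (log2 ratio -2.20, SE 0.058, adjusted p 4.34e-14), and Pdk1, which closes the entry of pyruvate into mitochondria, differed by -1.45 (adjusted p 7.14e-08). The exceptions were Tfrc, the transferrin receptor (log2 ratio 1.09, SE 0.21, adjusted p 0.0011), and Vldlr, a lipoprotein receptor (0.67), both higher, though the call of Vldlr was lost with probes averaged (0.48). Vegfa, the vessel growth factor, was not called (-0.41, adjusted p 0.268), and neither was Aldoa, aldolase A (0.014). The cause of these differences was not tested.

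Start windows of 4 of the genes called lower are shown for the hypoxia response core ACGTG, in capitals, searched on both strands (RefSeq, GRCm38.p6, 250 bases before to 50 after a start). Pgk1 lies at chrX:106186850-106187149 (plus strand), Car9 at chr4:43506776-43507075 (plus), Ldha at chr7:46845554-46845853 (plus, 1 of its 2 windows) and Ppp1r3c at chr19:36736555-36736854 (minus).
Pgk1: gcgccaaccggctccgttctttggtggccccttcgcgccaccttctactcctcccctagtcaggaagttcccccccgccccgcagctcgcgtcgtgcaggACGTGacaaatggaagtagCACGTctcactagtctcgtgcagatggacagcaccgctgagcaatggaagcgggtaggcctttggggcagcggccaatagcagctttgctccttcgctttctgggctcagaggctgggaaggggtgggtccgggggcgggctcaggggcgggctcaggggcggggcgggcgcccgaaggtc
Car9: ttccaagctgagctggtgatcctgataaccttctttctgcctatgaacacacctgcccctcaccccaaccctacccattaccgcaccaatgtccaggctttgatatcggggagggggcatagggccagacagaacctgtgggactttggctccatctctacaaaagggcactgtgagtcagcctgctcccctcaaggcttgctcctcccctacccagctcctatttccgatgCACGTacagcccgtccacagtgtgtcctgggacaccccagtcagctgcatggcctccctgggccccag
Ldha: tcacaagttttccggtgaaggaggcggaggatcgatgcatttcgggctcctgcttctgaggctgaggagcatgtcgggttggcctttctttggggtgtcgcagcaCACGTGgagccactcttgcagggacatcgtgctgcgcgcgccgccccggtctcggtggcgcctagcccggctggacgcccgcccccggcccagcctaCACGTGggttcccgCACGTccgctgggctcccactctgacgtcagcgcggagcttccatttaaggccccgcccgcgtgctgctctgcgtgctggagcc
Ppp1r3c: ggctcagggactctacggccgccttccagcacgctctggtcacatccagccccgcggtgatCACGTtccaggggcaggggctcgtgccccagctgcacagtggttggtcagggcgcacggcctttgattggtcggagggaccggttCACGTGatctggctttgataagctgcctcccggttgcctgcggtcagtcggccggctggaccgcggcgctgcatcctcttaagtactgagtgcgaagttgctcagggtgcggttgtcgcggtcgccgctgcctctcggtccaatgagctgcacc
The core occurs in 15 of 21 genes called lower that have a window and in 11 of 18 genes of the list that were tested and not called, against 21.8% of 27025 genes with a window. A palindromic CACGTG counts once on each strand. A match is a description of the letters and not evidence of binding.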
